A study of Mus musculus with 14 samples.

Results

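The 10 genes described here carry the Hedgehog, PDGF and FGF signals that shape alveoli: the ligands Shh, Pdgfa and Fgf10, the receptors Ptch1, Pdgfra, Fgfr2, Fgfr3 and Fgfr4, and the Hedgehog readouts Gli1 and Hhip. They were chosen by name, with earlier results of these arrays known, and each is read by the probe set that carries its Entrez gene number. All 10 were found, among 21212 probe sets in the table and 18782 genes with 1 probe set of their own.

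RNA came from dissected whole lungs of mice at postnatal day 6 on C57BL/6J, hybridised to 14 Affymetrix mouse Gene ST 1.0 arrays. The groups were 4 Atxn1L -/- lungs (called Atxn1l knockouts here) with 4 WT lungs from the heterozygous Atxn1L intercrosses, and 3 Atxn1 -/- lungs with 3 WT lungs from the heterozygous Atxn1 intercrosses. The labels name no deletion or agent that all groups share. The proteins of both targeted genes act together with the transcriptional repressor Capicua, and the question put to the septation genes is whether their transcripts differ when either protein is lost. The design text writes Atxn1 for both sets of pairs, and the sample titles, used here, name Atxn1L for the set of 4. The labels do not say which part of a gene was deleted and give no sex or litter.

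In the days after birth the walls of the distal air sacs put out ridges, the secondary septa, which divide the sacs into alveoli. Epithelial cells secrete platelet-derived growth factor A, which holds and recruits fibroblasts that bear Pdgfra and become the contractile, elastin-making myofibroblasts at the septal tips. Sonic hedgehog is also made by epithelium and is received by mesenchyme, where it induces Gli1, Ptch1 and Hhip. Fgf10 comes from mesenchyme and acts on epithelium through Fgfr2, whereas mice that lack both Fgfr3 and Fgfr4 fail to form secondary septa.

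The samples gave the following frame for these genes. The authors normalized the 8 and the 6 arrays apart, with array medians of 8.44 to 8.53 (Atxn1l set) and 9.21 to 9.24 (Atxn1 set), so no level is set across them. Atxn1l fell by 2.58 in its own knockouts on the log2 scale (SE 0.09, adjusted p = 1.18e-06), and no array overlapped. Atxn1 differed by 0.01 in its own (SE 0.07, adjusted p = 0.9999), and whether its probes read the deleted region is not known, so they check nothing. Xist, made from the inactive X chromosome, was low on 1 of 4 Atxn1l knockout and 2 of 4 wild-type arrays, and on 1 of 3 Atxn1 knockout and 2 of 3 wild-type arrays. Markers of alveolar type 2 cells, which make surfactant, were high on every array, with a mean log2 level over 10 genes between 12.44 and 12.52 (Atxn1l set) or 12.82 and 12.98 (Atxn1 set). The array of Atxn1l knockout replicate 1 had a neutrophil marker mean of 10.39 over 10 genes, where the other arrays of its set lay between 8.10 and 9.11, and 10 of 10 of these markers were above 0 in the knockout with 0 past the threshold. In the Atxn1 set wild type replicate 3 stood at 10.82 and the others between 9.004 and 9.53. Macrophage markers were higher on every Atxn1l knockout array (9.07 to 9.68) than on any of its wild types (8.55 to 8.66), with 9 of 9 above 0 and 2 past the threshold. The part of these leukocyte markers in the values below was not tested. In whole lung RNA fewer cells of a type and less RNA per cell cannot be told apart.

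All 10 septation genes were expressed well above the dimmest probe sets: their lowest level was 8.93, for Gli1, where the floor of the Atxn1l set was 7.17. That floor is the 95th percentile of 1259 probe sets of olfactory and vomeronasal receptors, genes of sensory neurons. In the Atxn1 set the floor was 7.97, and all 10 lay above it there too.

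No septation gene passed the test in either knockout. With a Benjamini-Hochberg adjusted limma p under 0.05 as the threshold, 0 of 10 passed in the Atxn1l knockout, where 0.0424% of all probe sets did (0.0236% higher and 0.0189% lower). In the Atxn1 knockout 0 of 10 passed, where the share was 0.0%. At an unadjusted limma p under 0.05 there was 1 of 10 in each, Fgf10 without Atxn1l and Shh without Atxn1, against 8.5% and 1.22% of all probe sets. By direction these shares were 4.54% higher and 3.95% lower without Atxn1l, and 0.75% higher and 0.467% lower without Atxn1. Estimated changes without Atxn1l ran from -0.17 to 0.08 on the log2 scale, 4 above 0 and 6 below, with a median of -0.02 (0.0026 over all probe sets). Without Atxn1 all 10 lay above 0, between 0.01 and 0.13, with a median of 0.06, while 47.3% of all probe sets lay above 0 and their median was -0.0038. Those shares include dim probe sets, whereas the 10 genes all lie above the floor. Without the dim probe sets the median was 0.004. Markers of endothelium and of myofibroblasts were likewise above 0 in 8 of 8 genes each in that knockout, with 0 past the threshold. So were alveolar type 1 markers, in 8 of 8, and the ERK feedback and PEA3 genes described below, in 12 of 12, again with 0 past the threshold. Type 2 markers were above 0 in 8 of 10. Some lists were mixed: markers of matrix fibroblasts and lipofibroblasts were above 0 in 5 of 8 genes and below in 3. Airway markers were above 0 in 2 of 6 and below in 4, and 0 passed in either list. Erythroid markers, of red cell precursors, were above 0 in 4 of 4, with a median change of 0.25 and list means of 9.80 to 10.02 on knockout arrays against 9.51 to 9.78, and again 0 passed. Neutrophil markers were above 0 in 0 of 10, with a median change of -0.27 and 0 past the threshold. Their mean was 10.82 on wild type replicate 3. On wild type replicates 1 and 2 it was 9.18 and 9.004, below every knockout array, at 9.29 to 9.53. The part of these markers in the values was not tested.

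The precision bounds what could have been missed. Standard errors of the 10 changes ran from 0.04 to 0.13 without Atxn1l and from 0.05 to 0.10 without Atxn1. With all arrays and standard settings the 95% intervals of the 10 genes reached at most 1.34-fold lower (Pdgfra) and 1.18-fold higher (Ptch1) without Atxn1l. Without Atxn1 they reached 1.10-fold lower (Fgf10) and 1.26-fold higher (Fgf10). These are pointwise intervals from the spread between 4 and 4 or 3 and 3 arrays. Some alternative fits reached further. In the Atxn1l set the Pdgfra interval began at -0.42 on the log2 scale, and at -0.51 with wild type replicate 2 left out. In the Atxn1 set the Fgf10 interval ended at 0.34, and at 0.45 with array weights.

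**Figure D1:**
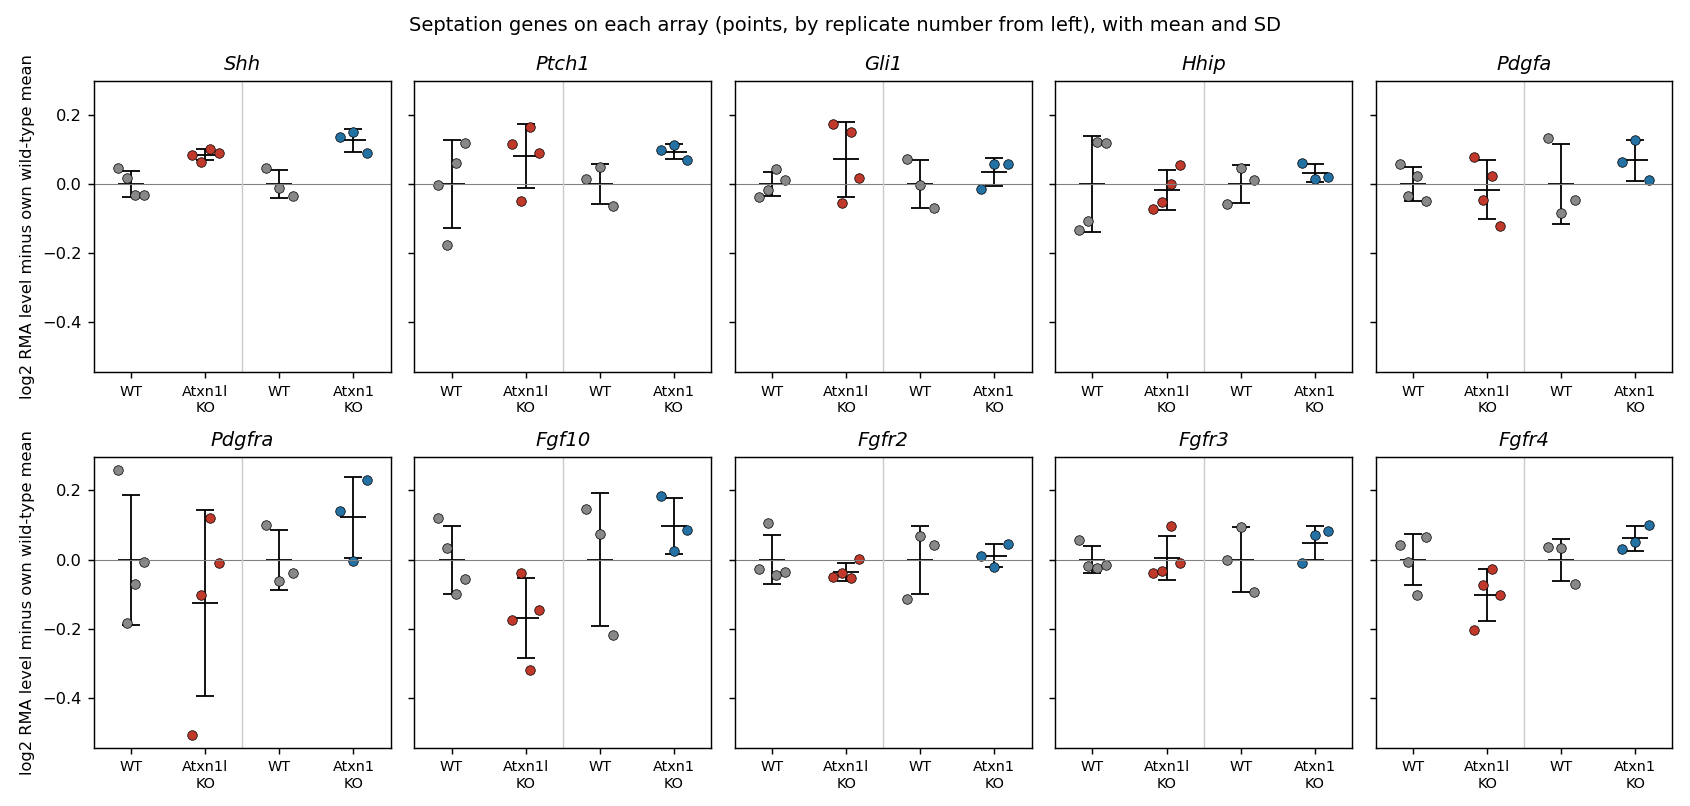
Level of each septation gene on every array as the log2 RMA level minus the mean of its own wild types (y axis), with wild types in grey, Atxn1l knockouts in red and Atxn1 knockouts in blue, and the group mean and SD as bars. Only Shh has every knockout point above every wild-type point in both sets, while the red Pdgfra point near -0.50 is Atxn1l knockout replicate 1.

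Sonic hedgehog, the ligand, had its knockout arrays above its wild types in both sets, by small amounts that did not pass the test. The log2 levels of the Atxn1l knockouts, replicates 1 to 4, were 9.91, 9.89, 9.93 and 9.92, and those of their wild types 9.87, 9.84, 9.79 and 9.79. The groups did not overlap, but the lowest knockout and the highest wild type were 9.888 and 9.871. The change was 0.08 (SE 0.04, 95% interval -0.01 to 0.18, adjusted p = 0.630), a 1.06-fold difference, and the exact two-sided permutation p was 0.0286, the smallest that 4 against 4 arrays can give and unadjusted. Of all probe sets 2.76% had every knockout above every wild type. In the Atxn1 set the knockouts had 10.69, 10.71 and 10.64 and the wild types 10.60, 10.54 and 10.52. Here too the groups stood apart, with a change of 0.13 (SE 0.05, 95% interval 0.01 to 0.24, adjusted p = 0.9999), or 1.09-fold, where 2.85% of all probe sets stood apart upward and 1.9% downward. Both sets are independent, with no array in common, and 31 probe sets (0.146%) had every knockout above every wild type in both. Shh was the 1 of 10 septation genes among them.

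Alveolar type 1 markers stood apart by genotype in 1 of the sets and type 2 markers in neither. Type 1 markers, of the flat cells of gas exchange, were above 0 in 8 of 8 genes without Atxn1, 0 of them past the threshold, and their mean was 12.46 to 12.48 on the knockout arrays and 12.39 to 12.43 on the wild types. Without Atxn1l they were above 0 in 2 of 8, with means of 11.85 to 11.91 against 11.88 to 11.95. Type 2 marker means overlapped in both, at 12.84 to 12.98 on Atxn1 knockout arrays against 12.82 to 12.93, and at 12.44 to 12.50 on Atxn1l knockout arrays against 12.44 to 12.52. Type 1 markers were not alone in this: erythroid means stood apart in the Atxn1 set too, at 9.80 to 10.02 against 9.51 to 9.78. So did the means of the ERK feedback and PEA3 genes described below, at 10.68 to 10.72 against 10.59 to 10.63. The part of any of these lists in the Shh values was not tested.

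Ptch1, the Hedgehog receptor and itself a target of the pathway, lay close to Shh in size of difference. Its levels were 11.66, 11.50, 11.71 and 11.64 in the Atxn1l knockouts and 11.54, 11.37, 11.61 and 11.67 in their wild types. These groups overlapped, at a change of 0.08 (SE 0.07, adjusted p = 0.824). The Atxn1 knockouts, at 12.19, 12.20 and 12.16, were all above their wild types, at 12.10, 12.14 and 12.03. That change was 0.09 (SE 0.05, 95% interval -0.03 to 0.22, adjusted p = 0.9999). Counting either direction, 2 of 10 septation genes, Shh and Ptch1, had groups that did not overlap without Atxn1, against 4.75% of probe sets, and 1 of 10, Shh, without Atxn1l, against 5.32%.

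Gli1, the transcription factor whose transcript is the usual readout of Hedgehog activity, spread more among Atxn1l knockouts than among their wild types. Knockout levels were 9.16, 8.93, 9.13 and 8.9997, and the wild types lay at 8.95, 8.96, 9.03 and 8.99. Replicates 1 and 3 were above all wild types and replicate 2 was below them, and the change was 0.07 (SE 0.06, adjusted p = 0.805). In the Atxn1 set knockouts at 9.52 to 9.59 lay inside the wild-type range of 9.46 to 9.60 (change 0.03, SE 0.06). Hhip, the membrane protein that binds and sequesters Hedgehog, differed by -0.02 (SE 0.07) without Atxn1l and 0.03 (SE 0.05) without Atxn1. Its wild types of the Atxn1l set formed a low pair, 11.59 and 11.61 in replicates 1 and 2, and a high pair of 11.84 each in replicates 3 and 4. The low pair are also the wild types of that set with low Xist. With the Xist level as a covariate the Hhip change in this set was -0.07 (SE 0.05). In the Atxn1 set the knockout with low Xist had the highest Hhip, 12.18. The wild types with low Xist had 12.06 and 12.16, and the one with high Xist 12.13. The part of Xist in these values was not tested further.

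Promoter windows of the Hedgehog readouts are shown because Gli proteins bind target promoters through the letters GACCACCCA. The windows, of 300 bases each, lie mostly before a start site listed by RefSeq for GRCm38.p6, and capitals mark GC boxes, GGGCGG on either strand. Ptch1 lies on the minus strand at chr13:63565686-63565985 and Hhip on the minus strand at chr8:80057959-80058258. The Ptch1 gene spans chr13:63508328-63573460, so its window lies at a start inside the gene. No window at its outermost start was read. Fgf10, on the plus strand at chr13:118714449-118714748, is added as the gene with the smallest p without Atxn1l.
Ptch1: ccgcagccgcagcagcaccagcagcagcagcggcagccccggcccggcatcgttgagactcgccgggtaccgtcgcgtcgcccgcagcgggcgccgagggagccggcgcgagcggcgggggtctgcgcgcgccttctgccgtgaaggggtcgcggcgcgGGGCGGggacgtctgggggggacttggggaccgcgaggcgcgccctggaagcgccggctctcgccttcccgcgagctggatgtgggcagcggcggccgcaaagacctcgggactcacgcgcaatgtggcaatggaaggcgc
Hhip: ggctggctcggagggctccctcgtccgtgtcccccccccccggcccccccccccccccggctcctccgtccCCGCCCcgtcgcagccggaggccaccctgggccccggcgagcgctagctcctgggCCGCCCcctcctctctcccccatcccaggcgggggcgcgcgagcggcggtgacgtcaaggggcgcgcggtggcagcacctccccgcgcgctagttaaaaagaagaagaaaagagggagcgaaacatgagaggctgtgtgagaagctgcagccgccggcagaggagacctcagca
Fgf10: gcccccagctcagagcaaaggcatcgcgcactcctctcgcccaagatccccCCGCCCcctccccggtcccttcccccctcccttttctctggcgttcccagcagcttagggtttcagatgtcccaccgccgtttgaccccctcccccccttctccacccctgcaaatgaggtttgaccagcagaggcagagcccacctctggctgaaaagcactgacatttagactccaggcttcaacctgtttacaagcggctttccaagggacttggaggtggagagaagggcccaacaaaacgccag
Windows were at hand for 8 of the 10 genes, not for Shh and Gli1, 10 windows in all. None of the 10 held GACCACCCA, which 0.253% of 32851 windows of the table hold on either strand, nor its core CCACCCA (9.3%). None held the Capicua octamers TGAATGAA or TGAATGGA (2.47%) or the ETS core CCGGAAG (8.86%). The TATA box TATAAA was in none (13.6%), and 8 of 10 windows held a GC box, against 35.7%. Those 8 came from Fgfr3 and Pdgfa, each counted more than once, and from Hhip, Fgfr4, Ptch1 and Fgf10. The GC content of the Ptch1, Hhip and Fgf10 windows was 76.3%, 73.7% and 60.7%, with a median of 52.7% over all windows. These matches describe letters in the windows and say nothing of binding.

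Pdgfa, the epithelial ligand, had overlapping groups in both comparisons. Its levels ranged from 11.10 to 11.30 in Atxn1l knockouts and 11.18 to 11.28 in their wild types (change -0.02, SE 0.06, adjusted p = 0.971). In the Atxn1 set they ranged from 11.71 to 11.82 and from 11.61 to 11.83 (change 0.07, SE 0.07, adjusted p = 0.9999). The 95% intervals were -0.14 to 0.11 and -0.10 to 0.24.

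Pdgfra, the receptor of septal fibroblasts, varied most between lungs, with an SD of 0.27 among Atxn1l knockouts. Their levels were 10.76, 11.16, 11.38 and 11.25, and those of the wild types 11.52, 11.08, 11.19 and 11.25. Of the knockouts, replicate 1 lay below all wild types. The change of -0.12 (SE 0.13, 95% interval -0.42 to 0.17, adjusted p = 0.864) became 0.0024 without that array, which is also the array with the neutrophil marker mean of 10.39 and the only Atxn1l knockout with low Xist. Myofibroblast and smooth muscle markers had their lowest mean there as well, 11.23 over 8 genes, against 11.24 to 11.48 on the other arrays of the set. They were not alone. Endothelial markers had their lowest mean there too, 11.94 against 12.02 to 12.21, and so did alveolar type 1 markers, 11.85 against 11.87 to 11.95. Matrix fibroblast and lipofibroblast markers did not, at 11.15 against 11.05 to 11.16. With the Xist level as a covariate the Pdgfra change in this set was -0.17 (SE 0.14). What these values have to do with Pdgfra was not tested further. Among Atxn1 knockouts levels were 11.72, 11.57 and 11.81 against 11.68, 11.52 and 11.54, with 2 of 3 knockouts above all wild types (change 0.12, SE 0.08, adjusted p = 0.9999).

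Fgf10, the mesenchymal ligand, had the lowest estimate without Atxn1l. Knockout arrays read 9.69, 9.82, 9.54 and 9.72, and wild types 9.98, 9.89, 9.76 and 9.81. In this set 3 of 4 knockouts lay below every wild type, and replicate 2 overlapped them. The change was -0.17 (SE 0.07, 95% interval -0.33 to -0.01, adjusted p = 0.562), 1.12-fold lower. The exact two-sided permutation p was 0.0857. At an unadjusted p under 0.05 and lower were 3.95% of all probe sets. In the Atxn1 set the levels were 10.59, 10.43 and 10.49 against 10.55, 10.48 and 10.19. The change of 0.10 (SE 0.10, adjusted p = 0.9999) rested on the low wild type replicate 3 and was -0.01 without it. That array also had the neutrophil marker mean of 10.82, whose part was not tested.

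Of the FGF receptors, Fgfr4 came next in size without Atxn1l. Its knockouts had 10.52, 10.65, 10.70 and 10.62 and its wild types 10.77, 10.72, 10.62 and 10.79, so 2 knockouts lay below all wild types. The change was -0.10 (SE 0.06, 95% interval -0.23 to 0.03, adjusted p = 0.677). Without Atxn1 it was 0.06 (SE 0.05), with knockouts at 11.23 to 11.30 and wild types at 11.13 to 11.24. Fgfr2, the receptor through which Fgf10 acts on epithelium, differed by -0.04 (SE 0.05) and 0.01 (SE 0.06). Its knockouts lay at 11.57 to 11.62 without Atxn1l and 11.99 to 12.06 without Atxn1, and the wild types at 11.58 to 11.73 and 11.90 to 12.08. Fgfr3 differed by 0.00 (SE 0.05) and 0.05 (SE 0.06). Its ranges were 10.87 to 11.01 against 10.89 to 10.97, and 11.53 to 11.62 against 11.44 to 11.63. Adjusted p values of Fgfr2 and Fgfr3 were 0.904 and 0.992 without Atxn1l and 0.9999 for both without Atxn1.

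**Figure D2:**
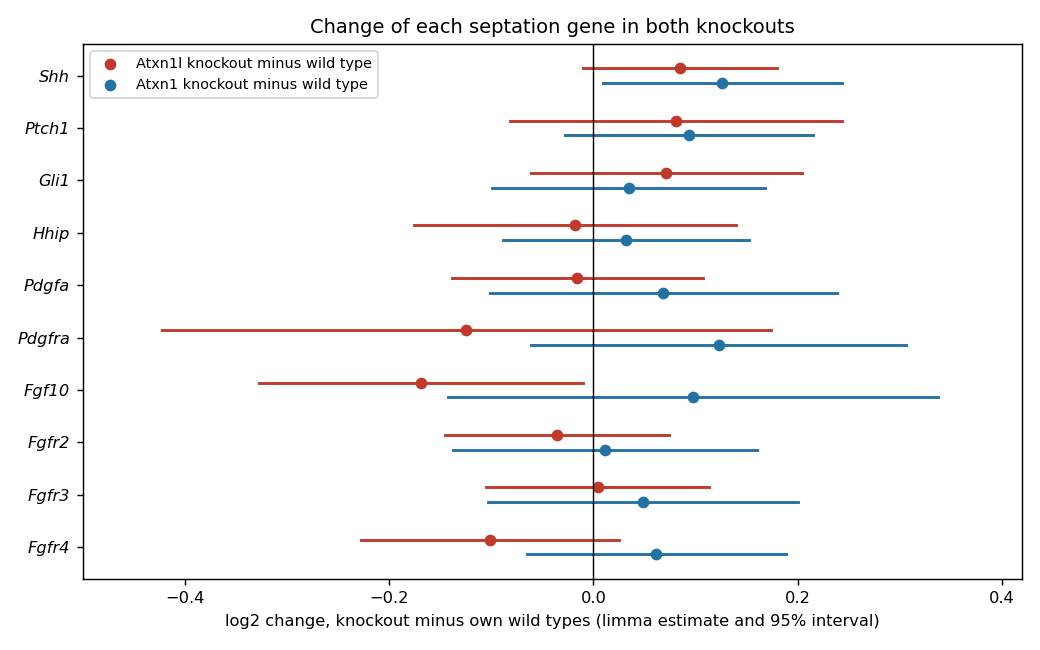
Log2 change of each septation gene (x axis, knockout minus its own wild types) with its 95% interval from limma, Atxn1l knockout in red and Atxn1 knockout in blue. Intervals leave out 0 only for Fgf10 in red and Shh in blue, and neither passed after adjustment over 21212 probe sets. Both took in 0 under an alternative fit. With the Xist level as a covariate the red Fgf10 interval was -0.31 to 0.02. With the replicate number as a block the blue Shh interval was -0.03 to 0.28.

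No septation gene passed the test of a difference between the knockouts. Setting the Atxn1l change against the Atxn1 change, with all 14 arrays fitted together in limma, called 0 of 10, where 0.00943% of all probe sets passed. Across the genes 4 estimates lay above 0 in both knockouts and 6 had opposite signs. With all arrays Fgf10 had the widest gap, with the Atxn1l change below the Atxn1 change by -0.27 (SE 0.13, 95% interval -0.54 to 0.0036, adjusted p = 0.9996). That gap was -0.16 without Atxn1 wild type replicate 3, where Pdgfra had -0.23, and -0.46 with array weights (adjusted p = 0.138). Pdgfra followed at -0.25 (SE 0.18), or -0.12 without Atxn1l knockout replicate 1 and -0.16 without Atxn1l wild type replicate 1, and Fgfr4 at -0.16 (SE 0.08). For the 4 Hedgehog genes the gap was between -0.05 and 0.04.

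Of the other genes of these pathways, 1 passed the test. Of 14 other Hedgehog genes measured, from a list of 17, 0 passed in either direction in either knockout. In the Atxn1l knockout 10 were above 0, with a median change of 0.02. The lowest value was that of Scube2, which helps to release the lipid-bearing ligand, at -0.29 (SE 0.13, adjusted p = 0.584). Its groups overlapped, and the change was -0.15 without Atxn1l knockout replicate 1. Gli3, a transcription factor that is largely a repressor, had 0.15 (SE 0.08), and the co-receptor Boc 0.12 (SE 0.06). Without Atxn1 11 were above 0 with a median of 0.02, Boc at 0.10 (SE 0.05), Scube2 at 0.11 (SE 0.06) and the ligand Ihh at -0.11 (SE 0.10).

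Of 5 other PDGF genes 0 passed in either direction. Pdgfb, the ligand made by endothelium, had 0.11 (SE 0.06) without Atxn1l and 0.10 (SE 0.08) without Atxn1. Pdgfd had -0.11 (SE 0.07) in the first, Pdgfc -0.09 (SE 0.06) in the second, and Pdgfrl, a receptor-like gene, 0.12 (SE 0.10) in the second. Pdgfc had 0.03 (SE 0.10) without Atxn1l.

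Among 21 other FGF ligands 0 passed in either direction, with 11 above 0 without Atxn1l (median 0.01) and 6 without Atxn1 (median -0.04). Fgf7, which like Fgf10 comes from mesenchyme and binds Fgfr2, had a change of -0.20 without Atxn1l (SE 0.06, adjusted p = 0.419), from 9.67 ± 0.11 to 9.48 ± 0.04 (SD, n = 4 each). Its groups did not overlap. Neither did those of Fgf1, at -0.10 (SE 0.05, adjusted p = 0.590), and 2.56% of all probe sets lay without overlap downward. Fgf21, a liver hormone, had -0.13 (SE 0.08) and lay under the floor. Without Atxn1 the values were 0.11 for Fgf18 (SE 0.06), -0.17 for Fgf11 (SE 0.09) and -0.10 for Fgf17 (SE 0.07).

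Of 11 FGF receptors and cofactors measured, from a list of 12, 0 passed either way. Fgfbp1, a carrier that frees FGFs from the matrix, had 0.42 without Atxn1 (SE 0.06, adjusted p = 0.9999), at 8.85 ± 0.03 against 8.42 ± 0.08 (SD, n = 3 each), and its groups did not overlap. With array weights it passed, at 0.47 (adjusted p = 0.0234), and in the other 13 alternatives it did not. It had 0.12 (SE 0.08) without Atxn1l, where its level of 7.19 ± 0.15 against 7.08 ± 0.09 (SD, n = 4 each) put it under the floor. The adhesion proteins Flrt2 and Flrt3 had 0.08 (SE 0.07) without Atxn1l and 0.12 (SE 0.08) without Atxn1. Kl, at 0.14 (SE 0.06), and Klb, at -0.17 (SE 0.15), the co-receptors of hormone-like FGFs, were under the floor in those respective sets.

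The gene that passed was Etv4, an ETS factor that FGF signalling induces and Capicua represses, in the list of 12 ERK feedback and PEA3 genes. It rose without Atxn1l by 0.48 (SE 0.05, adjusted p = 0.0130), from 7.94 ± 0.04 to 8.42 ± 0.06 (SD, n = 4 each). Leaving out 1 array at a time kept its change between 0.45 and 0.50, but the call held in 5 of 8 such fits. It was lost without knockout replicate 4 (limma adjusted p = 0.0701), wild type replicate 1 (0.0624) or wild type replicate 2 (0.0549). The other 11 of that list did not pass, among them the ERK inhibitors Spred2 at 0.15 (SE 0.08) and Spred3 at 0.13 (SE 0.06), and the list's median was 0.06. This list was chosen with its earlier results known, so it is not independent evidence of direction. Without Atxn1 all 12 were above 0 with a median of 0.07 and 0 passed, Dusp4 at 0.25 (SE 0.07), Etv5 at 0.13 (SE 0.08) and Spry1 at 0.11 (SE 0.05). The median of all probe sets was -0.0038 there, and 0.004 without the dim ones. With all arrays, Etv4 was thus the 1 gene of the 10 septation genes and 63 pathway genes that passed in either knockout, and that call depended on the 3 arrays named.

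**Figure D3:**
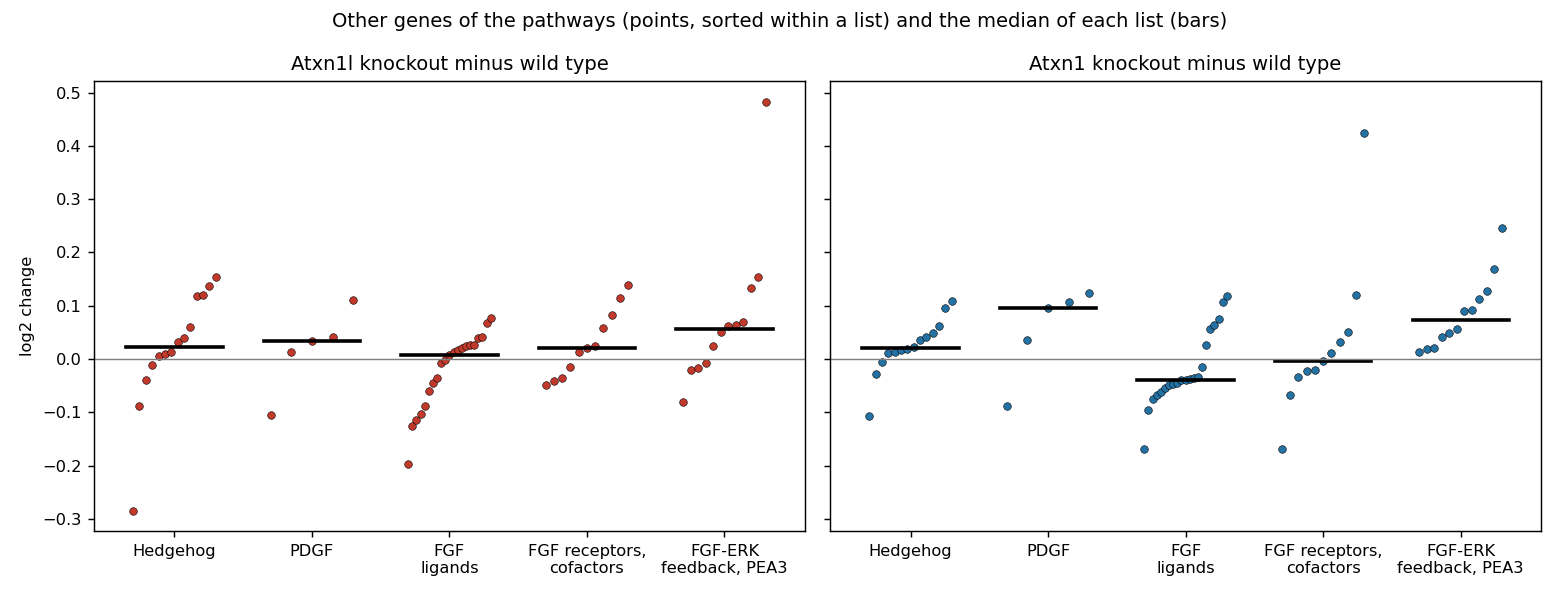
Log2 change (y axis) of every measured gene in the lists of other pathway genes, sorted within a list, with the list median as a black bar, for the Atxn1l knockout (red) and the Atxn1 knockout (blue). The high red point is Etv4 at 0.48, called with all arrays and lost in 3 of 8 fits without 1 array, and the high blue point is Fgfbp1 at 0.42, not called.

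How the septation genes varied together from lung to lung was read from deviations from the group means, over 14 arrays. Of 45 pairs 0 passed after adjustment over the pairs (smallest adjusted p = 0.219, exact permutation over all 20736 orders within groups), and 5 had an unadjusted exact p under 0.05, where 2.25 would have one with no relation. Arrays of a set share their normalization, so a shared technical shift enters every r. Ptch1 and Gli1, both Hedgehog targets, varied in the same direction, with r = 0.58 and rho = 0.65 (exact permutation p = 0.0280 and 0.0193, adjusted p = 0.415 and 0.218), r = 0.62 in the Atxn1l set and 0.49 in the Atxn1 set. It was 0.50 without the 2 arrays farthest out in Ptch1. Of all probe sets 5.26% had an r at least as high with Ptch1, and 5.05% with Gli1. Hhip had r = 0.59 with Ptch1 (exact permutation p = 0.143) and 0.03 with Gli1. Shh, the ligand, had r = -0.04 with Ptch1, 0.21 with Gli1 and -0.61 with Hhip, none of them under an exact p of 0.05.

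Between growth factor genes the r of lowest p was that of Pdgfa and Fgfr2, -0.75 (rho = -0.66, exact permutation p = 0.00487 and 0.0170, adjusted p = 0.219 and 0.218). It was -0.47 in the Atxn1l set, -0.99 in the Atxn1 set and -0.65 without the 2 arrays farthest out in Pdgfa. Pdgfra and Fgfr4 had r = 0.68 (rho = 0.71, exact permutation p = 0.0371 and 0.0192, adjusted p = 0.415 and 0.218), with 0.74 and 0.44 in the sets and 0.51 without the 2 farthest arrays. An r as high was reached by 2.16% of probe sets with Pdgfra and 1.57% with Fgfr4. Fgfr3 and Fgfr4 had r = 0.65 (rho = 0.72, exact permutation p = 0.0280 and 0.00699, adjusted p = 0.415 and 0.218), with 0.60 and 0.85 in the sets and 0.58 without the 2 farthest. Here the shares were 0.858% with Fgfr3 and 2.06% with Fgfr4. Shh and Pdgfa, both epithelial ligands, had r = 0.60 (rho = 0.60, exact permutation p = 0.0462 and 0.0551, adjusted p = 0.415 and 0.354), 0.27 and 0.90 in the sets, and 0.36 without the 2 farthest arrays. The shares were 4.1% with Shh and 12.2% with Pdgfa.

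**Figure D4:**
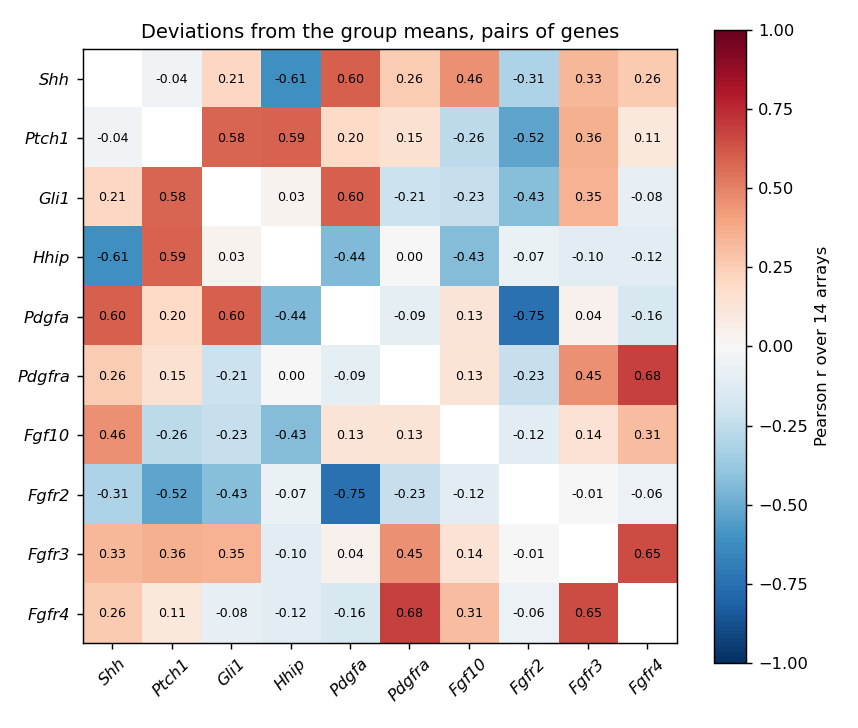
Pearson r between septation genes over 14 arrays (colour and printed value), from deviations of log2 levels from the group means. The extreme cells are Pdgfa with Fgfr2 at -0.75 and Pdgfra with Fgfr4 at 0.68, and no pair passed after adjustment.

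For each gene, the other genes most like it were taken as those of highest r over the same deviations. Being the highest over all genes, these r are high by choice and carry no test. For Pdgfra they were Angpt2 (0.96) and Reck (0.94), for Fgf10 Mcc (0.91) and Dach1 (0.88), and for Pdgfa Gp2 (0.94) and Wscd2 (0.94). Ptch1 was followed most closely by Gpd1l (0.95) and Wdr82 (0.94), Gli1 by Smox (0.94) and Alg9 (0.90), Hhip by Srsf2 (0.93) and Tuba1a (0.91), and Shh by 4932414N04Rik (0.95) and Trp53bp2 (0.88). Among the receptors Fgfr2 was nearest to Zfp810 (0.97) and Tmod3 (0.95), Fgfr3 to Tspan17 (0.95) and Dnajc28 (0.89), and Fgfr4 to Ndufa4l2 (0.91) and Npr2 (0.91). No septation gene was among these nearest genes of another.

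Position was looked at because a targeted allele carries its neighbourhood with it. In GRCm38.p6 Fgfr4 spans chr13:55152818-55168759, Ptch1 chr13:63508328-63573460 and Fgf10 chr13:118714699-118792573. So 3 of the 10 genes share chromosome 13 with Atxn1, at 9.19 Mb for Fgfr4, 17.5 Mb for Ptch1 and 72.7 Mb for Fgf10. Hhip, chr8:79965850-80058060, lies 29.7 Mb from Atxn1l. The other 6 genes share a chromosome with neither targeted gene. Shh lies at chr5:28456840-28467101, Fgfr3 at chr5:33721724-33737068, Pdgfra at chr5:75151322-75198206 and Pdgfa at chr5:138976014-139000792. Fgfr2 lies at chr7:130162451-130266808 and Gli1 at chr10:127329882-127341579. Without Atxn1 the changes of Fgfr4, Ptch1 and Fgf10 were 0.06, 0.09 and 0.10, inside the range of the other septation genes.

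Single arrays moved several of these estimates without bringing any past the threshold. Shh stayed between 0.07 and 0.10 over the 8 fits that each left out an array of the Atxn1l set, and between 0.11 and 0.15 over 6 such fits of the Atxn1 set. Fgf10 stayed between -0.21 and -0.12 in the Atxn1l set, and Fgfr4 between -0.13 and -0.07. The unadjusted limma p was under 0.05 in 3 of 8 such fits for Fgf10 in the Atxn1l set. For Shh in the Atxn1 set it was so in 1 of 6. Ptch1 had 0.02 to 0.12 in the first set and 0.06 to 0.12 in the second. Pdgfra ran from -0.21 to 0.0024 and from 0.07 to 0.19.

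**Figure D5:**
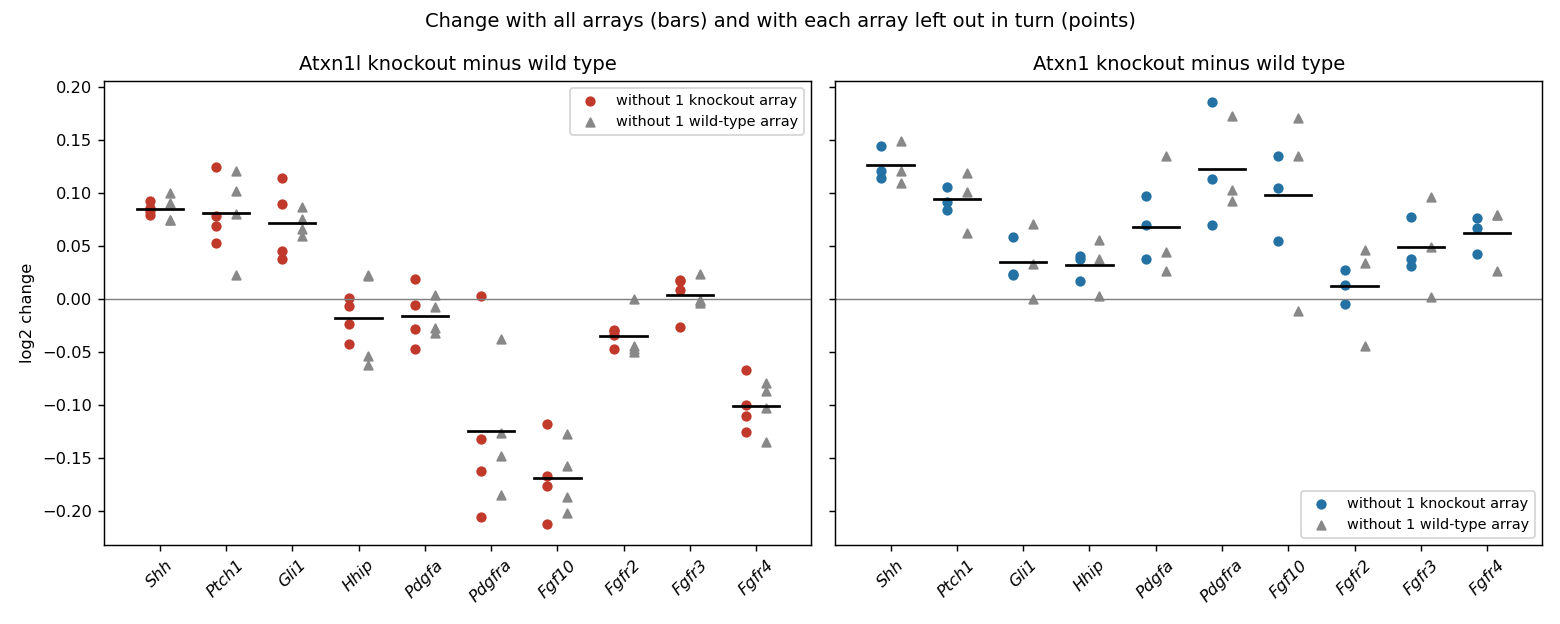
Log2 change of each septation gene (y axis) with all arrays (black bars) and with each array left out in turn, circles for a knockout array and triangles for a wild-type array. The Pdgfra circle at 0 in the left panel is the fit without Atxn1l knockout replicate 1, and the Fgf10 triangle just below 0 in the right panel is the fit without Atxn1 wild type replicate 3.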

How the data were processed

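Per the labels' protocols, total RNA of each lung was labelled for Affymetrix mouse Gene ST arrays. The deposited values are log2 levels made by the authors with RMA, separately over 8 and 6 arrays, per the series design text. The submitters' processing notes also name limma. The sources used here give no version of the probe set definition. Of 21212 probe sets, 18786 had 1 gene symbol in the platform's table, 6 several and 2420 none.

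Knockouts were tested against the wild types of their own set by limma 3.58.1 in R 4.3.3 (lmFit, eBayes, no covariate, two-sided) over all probe sets, with Benjamini-Hochberg adjustment and a threshold of 0.05. No sample or probe set was dropped. Pairs of genes were tested by exact permutation within groups (numpy 2.4.6, two-sided). SD is between arrays. Precision is limited by how many arrays there are, and p-values measure the spread between these samples.

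The members, gene lists, motifs and tests were chosen with earlier results of these data known. Named genes were the 10 septation genes, from each pathway list those past the threshold and the 3 of smallest p per knockout, and for each septation gene the 2 of highest r. The fit was tested on simulated data. Alternatives were a replicate term, the prior, array weights, a floor for dim probe sets, other normalizations, a Xist covariate and leaving out each array. Sequences are RefSeq's for GRCm38.p6. Splicing was not analysed here. Marker lists not described in the text had 0 genes past the threshold.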

Additional observations from a re-analysis of the deposited data

Results flagged for a closer look

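In groups of 4 arrays, 6 values of single genes stood apart from the rest of their group by Dixon's test, 2 of them for septation genes. Some of the 6 lie on the same array. Over the 88 sets of 4 values examined chance alone gives about 4.4. Fgfr2 was highest on wild type replicate 2 of the Atxn1l set, at a log2 level of 11.73, with the others at 11.58 to 11.59. Fgfr3 was highest on wild type replicate 1 of that set, at 10.97, with the others at 10.89. Among pathway genes of the Atxn1l knockouts, Fgf18 was lowest on replicate 1 (10.74, the others 10.81 to 10.82) and Pdgfd on replicate 2 (9.37, the others 9.58 to 9.63). Spred3 (8.25) and Spry1 (11.79) were highest on knockout replicate 2.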

How the results depend on the processing

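The 10 septation genes had 0 calls by adjusted p in either knockout, and in the difference between them, under each limma alternative run. The exact permutation test, unadjusted and counted apart, gave Shh p = 0.0286 in the Atxn1l knockout and the others there 0.0857 or more. In the Atxn1 knockout its smallest p was 0.1, for Shh and Ptch1. That is the lowest 3 against 3 arrays can give, so no gene could fall under 0.05 there. Of 520 values under the limma alternatives, 492 had the sign of the value with all arrays and the standard settings, 28 the other sign, and the smallest adjusted p was 0.138. Array weights in the Atxn1 set gave 8 of 10 an unadjusted p under 0.05, where 19.5% of all probe sets had one, with wild type replicate 3 weighted 6.38 and replicate 1 0.163. Over all probe sets the Atxn1l knockout had 9 calls, 5 without dim probe sets, 2 with the replicate number as a block and 2 to 25 without 1 array, and Atxn1 had 0, or 1 with array weights, which was Fgfbp1. In alternatives added after seeing the data, Etv4 in the Atxn1l knockout had adjusted p values of 0.00524 to 0.0880, the highest under the replicate block, and of 0.0140 to 0.0701 without 1 array.

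Where a sign turned, the values were as follows. In the Atxn1l knockout Pdgfa was 0.0023 with the Xist covariate and Fgfr3 -0.0199 after median centring. Fgfr2 in the Atxn1 knockout was -0.0263 with array weights and -0.0020 after cyclic loess. As Atxn1l minus Atxn1 change, Ptch1 was 0.0016 after joint quantile normalization and 0.0107 after cyclic loess, and Gli1 -0.0175 with array weights. Without 1 array the Atxn1l ranges were -0.0626 to 0.0227 for Hhip, -0.0475 to 0.0188 for Pdgfa, -0.21 to 0.0024 for Pdgfra, -0.0503 to 0.0001 for Fgfr2 and -0.0270 to 0.0230 for Fgfr3. The Atxn1 ranges were -0.0001 to 0.0705 for Gli1, -0.0114 to 0.17 for Fgf10 and -0.0443 to 0.0459 for Fgfr2, and the ranges of the difference -0.0717 to 0.0302 for Ptch1, -0.0813 to 0.0089 for Fgfr2 and -0.0915 to 0.0027 for Fgfr3. Of the named pathway genes, Pdgfc ran from -0.0270 to 0.1307 in the Atxn1l knockout, and in the Atxn1 knockout Ihh from -0.1799 to 0.0064 and Klb from -0.2854 to 0.0177. The cause was not tested.

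Deviations of same-numbered arrays correlated at 0.09, 0.04, 0.23 and 0.38 in the Atxn1l set, where differently numbered arrays ran from -0.24 to 0.25. In the Atxn1 set same-numbered arrays had 0.0030, -0.42 and 0.42, and the others ran from -0.37 to 0.37. Whether replicate numbers tie arrays together was not tested. Under the replicate block Shh had 0.08 (adjusted p = 0.591) and Fgf10 -0.17 (adjusted p = 0.416) in the Atxn1l knockout. Of the 45 pairs, 0 passed under other scalings and 0 to 1 without 1 array, alternatives chosen after seeing the data.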
